A study of Macaca fascicularis with 44 samples.

Results

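The cells described here are cytotrophoblast (CTB) cells of cultured cynomolgus monkey embryos that the authors' finest clustering, at resolution 2, placed in cluster 0. Members were taken from the authors' deposited annotation by the class name CTB and the cluster number 0. The rule found 286 cells, out of 549 CTB cells and 3682 cells in all. No cell of fine cluster 0 belonged to another class. The remaining CTB cells were cluster 12 with 138 cells and cluster 14 with 125 cells.

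Cytotrophoblast is the proliferating, progenitor layer of the trophoblast, the epithelium that forms the fetal side of the placenta. Its cells can fuse into the multinucleate, hormone-secreting syncytiotrophoblast (STB) or leave the epithelium as invasive extravillous trophoblast (EVT). GATA3, GATA2, TFAP2A, TFAP2C and TEAD4 are transcription factors of trophoblast, KRT7 is its classical keratin, and CGA encodes a subunit of the hormone that the syncytium secretes. CST6 encodes a secreted cystatin that inhibits legumain and some cathepsins, KRT17 a keratin of basal epithelia, VIT an extracellular matrix protein, and ACTA1 skeletal muscle actin. These 4 genes were given as markers of the cluster.

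RNA of single cells was sequenced in 44 libraries from 9 wild-type Macaca fascicularis embryos, fertilized by sperm injection and grown in vitro from the expanded blastocyst. Per the labels, embryos were taken between embryonic day E16 and E25, extraembryonic tissue was dissected away, and the inner part was dissociated with TrypLE and a mouth pipette. E16 holds 2 embryos (E16-1 and E16-2) and each of E18, E20, E21, E22, E23, E24 and E25 holds 1, so a day after E16 cannot be told apart from its embryo. The authors annotate 4 embryos as male (E16-1, E18, E21, E23) and 5 as female (E16-2, E20, E22, E24, E25). There was no treatment and no second genotype, and the trophoblast in these libraries is what remained after the dissection. In 2 libraries, which hold 29 of the 286 cells, the labels name conflicting days. These entered values by embryo, which follow the annotation, and no test.

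Cluster 0 was the only or nearly the only CTB cluster of 6 embryos and a small fraction of the CTB cells of 2. It held 26 of 26 CTB cells in E16-2, 47 of 48 in E18, 34 of 34 in E21, 12 of 12 in E22, 58 of 58 in E24 and 83 of 84 in E25. In E20 it held 17 of 165 CTB cells (10.3%, exact 95% binomial interval 6.12 to 15.98), and in E23 it held 9 of 122 (7.38%, 3.43 to 13.5). The other CTB cells of E20 were cluster 12 in 137 cases, and those of E23 were cluster 14 in 112 cases. E16-1 had no CTB cell among 208 cells, which allows a share of up to 1.44%. As a share of all cells of an embryo, cluster 0 ranged from 1.65% in E23 (0.755 to 3.10) to 20.7% in E24 (16.1 to 25.9). The intervals cover counting error only, and the dissection can set these shares. Because clusters 12 and 14 each come almost entirely from 1 embryo, a difference between cluster 0 and the other CTB cells cannot be told apart from a difference between embryos, except inside E20 and E23. At the authors' coarser resolution 0.8, 285 of the 286 cells stayed in 1 cluster with 2 cells of cluster 14, and at resolution 0.3 that cluster also held 124 cells of cluster 14. No cell of cluster 12 joined them at either resolution.

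**Figure D1:**
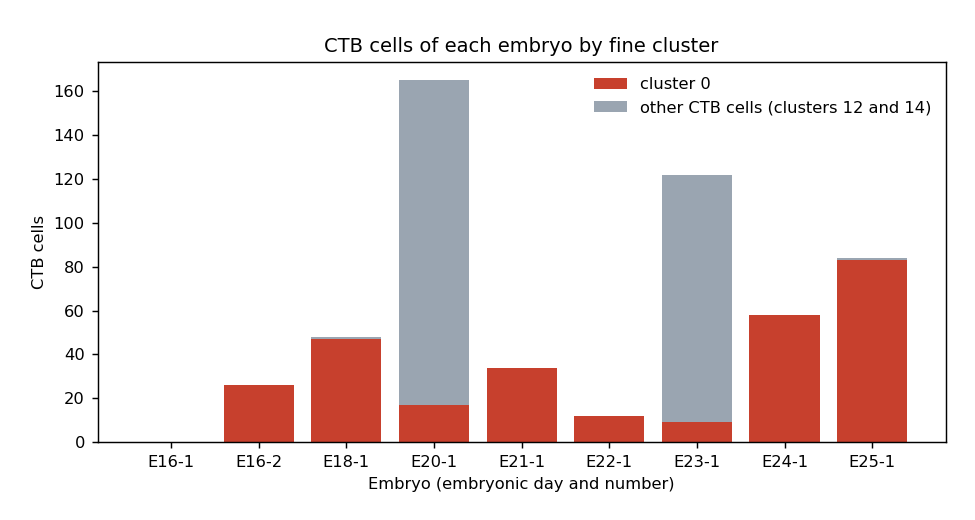
CTB cells of each embryo, with cluster 0 in red and the other CTB cells in grey (y axis: number of cells; x axis: embryo). Cluster 0 makes up nearly all CTB cells except in E20-1 (17 of 165) and E23-1 (9 of 122).

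The depth of these cells was like that of the series. The median cluster 0 cell had 130675 counts and 5121 genes with a count, against 110458 counts and 4877.5 genes over all cells. By embryo the median lay between 99730 counts (E23) and 158044 counts (E22), apart from E20, whose 17 cells had a median of 53059 counts and 2628 genes. The other CTB cells of E20 had a median of 256604 counts. Levels below are CPM, a gene's counts summed over a group of cells as a share of the group's total, scaled to a fixed sum. They are not corrected for gene length, so levels of different genes are not compared.

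The fixed markers of CTB were present in cluster 0, and their sum was higher still in STB. Of 18 fixed cytotrophoblast markers 17 are in the count table, and all 17 had a count in cluster 0. Their summed level was 5103 CPM, against 5451 in cluster 12, 10767 in cluster 14, 6806 in STB, 2490 in EVT and 504 CPM in extraembryonic mesenchyme (EXMC). PAGE4, a placental antigen gene, made up most of this sum, at 3400 CPM in cluster 0 and 4275 CPM in STB. Of the 11 markers of at least 50 CPM, 0 were above and 4 below both other CTB sums in the 7 embryos compared below. GATA3 stood at 276 CPM, KRT7 at 343 and VGLL1, a cofactor of TEAD proteins, at 547 CPM. GATA3 ranged over the 8 embryos from 196 CPM in E16-2 to 382 CPM in E22. ELF5 and FZD5, also on the list, were near 0, at 0.0616 and 0.246 CPM. Markers of the fused layer were present at a low level, with CGA at 1136 CPM in cluster 0, 2290 in cluster 12, 1078 in cluster 14 and 41661 CPM in STB. The EVT protease gene HTRA4 stood at 22.3 CPM, against 1098 CPM in EVT. The 11 EVT markers in the table summed to 975 CPM in cluster 0, above the 602 and 640 CPM of clusters 12 and 14 and far below the 18781 CPM of EVT.

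CST6 was the most regular of the 4 given markers. Its level in cluster 0 was 23.6 CPM in E16-2, 122 in E18, 201 in E20, 331 in E21, 244 in E22, 189 in E23, 642 in E24 and 258 CPM in E25. The other CTB cells had 5.87 CPM in E20 and 9.25 CPM in E23, so every embryo of cluster 0 lay above both. Library 5 of E16-2, with 10 cluster 0 cells, had 2.88 CPM and lay below both. Inside E20 the difference was 4.88 on the log2(CPM + 1) scale and inside E23 it was 4.21. EVT had 74.7 CPM, Non-neural ectoderm 63.5 and STB 62.0 CPM, so the gene was not limited to CTB. After each cell was thinned to 20000 counts, which left out 19 shallower cells of cluster 0, CST6 had a count in 164 of 267 cells (61.4%, 55.3 to 67.3), and before thinning in 209 of 286. The thinned share was 7.25% in cluster 12, 5.00% in cluster 14 and 10.7% in EXMC.

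VIT was lower but also widespread. It stood at 3.44 CPM in E16-2, 11.3 in E18, 70.8 in E20, 36.7 in E21, 118 in E22, 17.5 in E23, 27.8 in E24 and 37.3 CPM in E25. The other CTB cells had 9.44 CPM in E20 and 0.848 CPM in E23, so E16-2 lay between them and the remaining embryos above. After thinning 69 of 267 cells had a VIT count (25.8%, 20.7 to 31.5), against 7.25% in cluster 12 and 1.67% in cluster 14.

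KRT17 and ACTA1 did not mark the cluster as a whole. KRT17 stood at 53.4 CPM in E16-2, 57.8 in E18, 172 in E20, 54.8 in E21, 1.83 in E22, 0 in E23, 250 in E24 and 1.46 CPM in E25. The 3 embryos E22, E23 and E25 were thus below the other CTB cells of E20 (5.005 CPM). A single cell of E24 held 32.9% of all KRT17 counts of the cluster. ACTA1 stood at 42.4 CPM in E24, between 0.984 and 5.96 CPM in E16-2, E21 and E22, and at 0 in E18, E20, E23 and E25. E24 supplied 91.1% of its 415 counts and 5 cells supplied 87.7% of them. Only 18 of 286 cells had an ACTA1 count, and after thinning its share (2.62%, 1.06 to 5.33) was below the 6.40% of the PS and derivative class. Of the 286 cells, 50 had no count of any of the 4 markers, 86 had 1, 112 had 2, 30 had 3 and 8 had all 4. KRT17 and ACTA1 have near relatives among keratins and actins, whose reads an aligner can share between them.

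**Figure D2:**
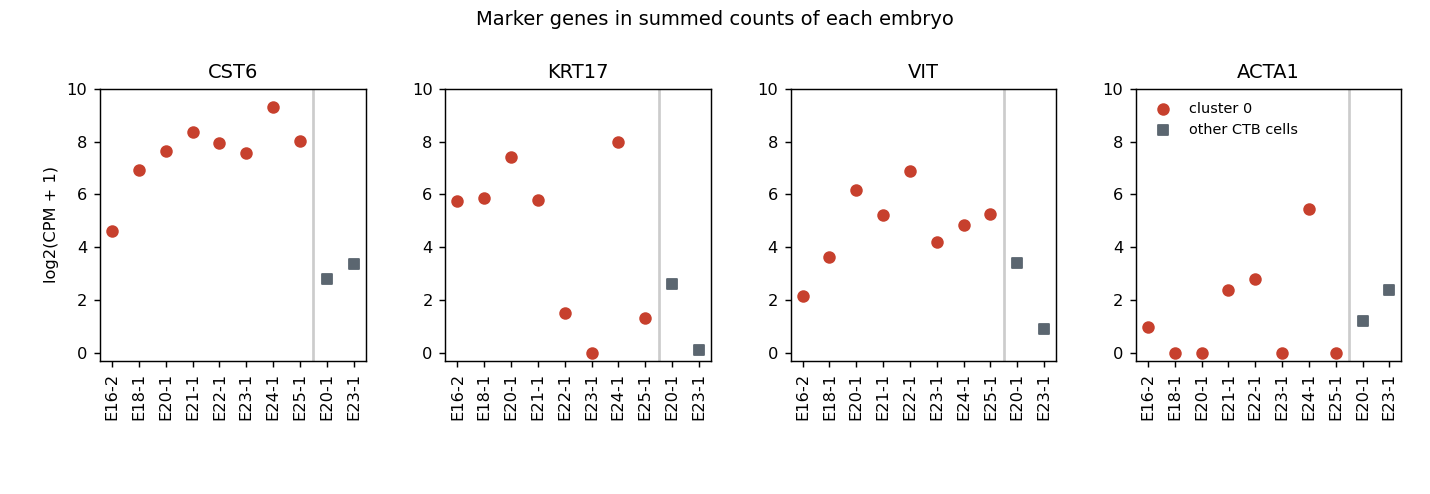
Level of the 4 given markers as log2(CPM + 1) of the counts summed over the cells of each embryo; red circles are cluster 0 in 8 embryos and grey squares the other CTB cells of E20-1 and E23-1. CST6 lies above both squares in every embryo, KRT17 is near 0 in 3 embryos, and ACTA1 is high in E24-1.

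Against the other CTB cells, cluster 0 had more RNA of CST6, TIMP3, CD9 and the actin-binding proteins TPM1 and CALD1, and less of ACSS1, TSPAN7, PEG10 and TEAD4. This is a description with no test, since the clusters were called on the same genes. It sets the sums of 7 embryos with at least 10 cluster 0 cells beside the other CTB sums of E20 and E23. Of 3538 genes of at least 50 CPM in one kind, 54 (1.53%) were above both other sums in all 7 embryos and 319 (9.02%) were below both. Inside E20 the direction of all 54 and all 319 is set by the rule, since E20 is one of the 7 embryos. E23, with 9 cluster 0 cells, is not one of them. Inside E23, 47 of the 54 were higher and 251 of the 319 lower. The other CTB sum of E23 is a bound of the rule, and the share over all 3538 genes was not counted. Without the shallow E20 sum of cluster 0 the genes without overlap were 93 above and 553 below.

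After CST6, the largest differences among higher genes were at TIMP3 and CD9. TIMP3, an inhibitor of metalloproteinases bound to the matrix, ranged from 56.1 to 555 CPM with a median of 166 over the 7 embryos, against 24.5 and 10.3 CPM in the other cells. The mean difference was 3.28 on the log2(CPM + 1) scale (SD 1.32 over the embryos of cluster 0). CD9, a tetraspanin of the cell surface, ranged from 119 to 894 CPM (median 357), against 60.6 and 25.7 CPM. LAPTM4B, a protein of lysosomal membranes, ranged from 59.2 to 591 CPM (median 200) against 30.05 and 29.1. By the rule that named these 3 genes, the groups do not overlap and the direction inside E20 is set. Inside E20 and E23 the differences were between 2.36 and 4.45.

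ENPEP, aminopeptidase A, which cleaves angiotensin II, ranged from 21.3 to 116 CPM (median 47.1) against 6.69 and 8.10 CPM. Inside E23 it differed by -0.19, with the 9 cluster 0 cells no higher than the other cells. ECM1, a secreted matrix glycoprotein, ranged from 248 to 722 CPM (median 329) against 195 in E20 and 19.6 in E23, and the difference inside E20 was 0.34. VEGFA, the vascular growth factor, ranged from 38.98 to 101 CPM against 16.4 and 26.5. The remaining 8 genes named by the rule were S100A5, CAPN2, FXYD5, ANXA3, GLIPR2, S100A16, PFKP and SKIL, with mean differences between 1.59 and 2.52. S100A5 and S100A16 are calcium-binding proteins, CAPN2 is the catalytic subunit of a calpain protease, PFKP is a phosphofructokinase of glycolysis and SKIL is a corepressor of SMAD signalling.

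Among the genes lower in cluster 0, ACSS1, a mitochondrial enzyme that makes acetyl-CoA from acetate, ranged from 0 to 2.70 CPM (median 0.666) against 42.4 and 72.0 CPM. TSPAN7, a tetraspanin, ranged from 0 to 11.2 CPM (median 3.93) against 63.4 and 164. PEG10, an imprinted gene of retrotransposon origin that the placenta needs, ranged from 2.25 to 28.3 CPM (median 23.1) against 109 and 186. In E23, outside the 7 embryos, PEG10 stood at 118 CPM in cluster 0, a difference of -0.65 from the other cells there. SLC27A2, a fatty acid transporter with acyl-CoA synthetase activity, ranged from 1.12 to 77.5 CPM against 132 and 205. The other low genes named by the rule were ATP6V1B1, GSDME, HOPX, NFE2L3, OLR1, MORC4, CDO1, SH3BGRL2, ALDH3A2, MYO10 and CCND3, with mean differences between -3.53 and -2.30. Inside E23, OLR1, a scavenger receptor for oxidized lipoprotein, was higher in cluster 0 by 0.42, while the other 14 low genes were lower there. HOPX is a homeodomain protein without DNA binding, NFE2L3 a transcription factor, ATP6V1B1 a subunit of a proton pump and CCND3 a cyclin.

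**Figure D3:**
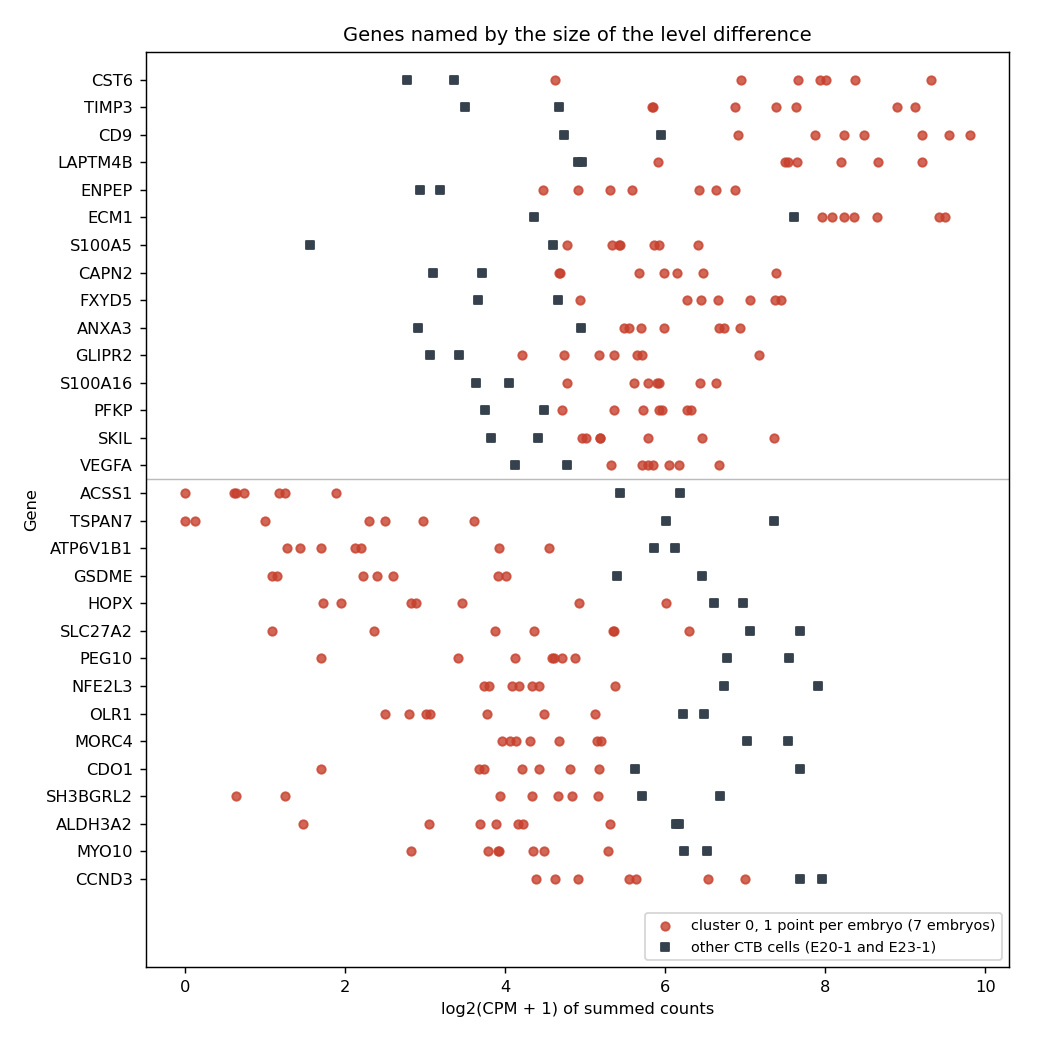
Genes named by the size of the level difference, as log2(CPM + 1) of summed counts; red circles are cluster 0 in 7 embryos and dark squares the other CTB cells of E20-1 and E23-1. By the rule that chose the genes, circles and squares do not overlap, and the upper 15 genes are higher and the lower 15 lower in cluster 0.

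The fixed lists placed these differences in groups. Over the 3538 genes the median difference was -0.28 on the log2(CPM + 1) scale. Of 7 actin and muscle genes of at least 50 CPM, 2 were higher without overlap and 0 lower, with a median of 1.54. These were TPM1, a tropomyosin, at 1109 to 1668 CPM against 612 and 736, and CALD1, caldesmon, at 449 to 834 CPM against 310 and 289. Among 7 genes of hypoxia and glycolysis, 1 was higher (VEGFA) and 0 lower, with a median of 1.29. The summed level of that list was 6165 CPM in cluster 0, 6656 in cluster 12 and 3005 in cluster 14, so it was above cluster 14 only. Of 12 trophoblast transcription factors, 1 was higher and 3 lower (median -0.61). ARID3A ranged from 99.98 to 153 CPM against 90.04 and 88.6. TEAD4 ranged from 1.12 to 35.01 CPM against 76.0 and 53.0, SPDEF from 14.6 to 105 CPM against 122 and 216, and TFAP2A from 33.7 to 93.1 CPM against 165 and 99.6. Of 6 YAP and TEAD genes, 0 were higher and 3 lower, and these were TEAD4, VGLL1 and WWTR1. DNMT1, the maintenance DNA methyltransferase, ranged from 168 to 378 CPM against 641 and 497. AXIN2, a target of WNT signalling, ranged from 59.5 to 132 CPM against 51.7 and 32.2. Of 13 proliferation genes, 0 were higher and 1 lower (median -0.54), namely MCM2. MKI67, a mark of cycling cells, stood at 115 CPM in cluster 0, 208 in cluster 12 and 159 in cluster 14, and it had a count in 62.5% of thinned cluster 0 cells.

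Transcripts of other classes were present in the cluster, and their part in the results was not tested. The summed level of 12 mesenchyme markers in cluster 0 ranged from 563 CPM (E24) to 2628 CPM (E20), with 580 in E18 and 2415 in E25, against 39568 CPM in EXMC. All 12 had a count. Inside E20, 1 of the 17 cells held 97.6% of the POSTN counts and 93.3% of the COL1A1 counts. In E25, by contrast, COL1A1 had a count in 83 of 83 cells, with a median of 350.1 CPM per cell, and after thinning it was found in 100% of those cells and in 93.0% of Neural ectoderm cells. In E23, 4 of the 9 cells had counts of VTCN1 and 2 had counts of ISL1, both amnion markers, and 1 cell held 68.7% of the VTCN1 counts. All 11 EVT markers had a count, and their sum ranged from 521 CPM in E18 to 2254 CPM in E20. The 13 amnion markers summed to between 210 CPM (E18) and 1775 CPM (E20), and the 8 endothelium markers to between 248 CPM (E22) and 1022 CPM (E20). Summed epiblast markers lay between 2.25 and 41.1 CPM and summed blood markers between 0 and 40.5 CPM. KRT5, a keratin of surface ectoderm, and HBZ, an embryonic hemoglobin gene of red cells, had no count in cluster 0, and KRT14 had 2.

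Levels within cluster 0 were then tested against embryonic day, which the rule that chose the cells did not use. The test took 10 libraries with agreeing labels and at least 10 cluster 0 cells: 1 of E16-2, 3 of E18, 1 of E24 and 5 of E25. With edgeR's quasi-likelihood test, 369 of 9483 genes (3.89%) had a slope of day with a Benjamini-Hochberg adjusted p under 0.05, of which 236 (2.49%) rose and 133 (1.40%) fell. Libraries of 1 embryo were counted as independent, so these p-values mix the spread within and between 4 embryos. A limma-voom fit with the embryo as a block called 297 genes, and CXCL14, IGFBP2, GPX3, ABCC3, EMP2 and ID2 among the 20 genes named below did not pass in it (adjusted p from 0.0782 to 0.496). With 1 sum per embryo, 0 genes passed (446 at an unadjusted p under 0.05), without the E25 libraries 8 passed, and with the library code as a term 42 passed. The mesenchyme markers also differed between these libraries, but not steadily with day. They summed to 2408 CPM in E16-2, 318 to 386 CPM in E18, 639 CPM in E24 and 633 to 4371 CPM in E25. With their sum as a covariate 209 genes passed.

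Of the 10 genes named for a rise, DLK1, an imprinted membrane protein of the Notch ligand family, had 0 CPM in the E16 library, 10.2, 12.5 and 14.9 CPM in E18, 40.2 in E24, and 59.1, 86.6, 113, 154 and 447 CPM in E25. All E25 libraries were above all earlier ones, and the slope was 0.58 ± 0.08 log2 per day (SE, adjusted p = 0.000899). ITGA1, the alpha chain of a collagen-binding integrin, had 36.7 CPM in E16, 5.60, 11.04 and 24.3 CPM in E18, 79.5 in E24, and 117, 127, 140, 228 and 258 CPM in E25. Its slope was 0.38 ± 0.07 (adjusted p = 0.00315), and E18 was lower than E16. The antimicrobial peptide gene DEFB1 went from 0 CPM in E16 and 2.10, 7.78 and 177 CPM in E18 to 385 in E24 and 634 to 2394 CPM in E25 (slope 0.69 ± 0.13, adjusted p = 0.00434). WFDC2, a secreted protein with protease inhibitor domains, went from 46.1 CPM in E16 and 62.0 to 205 in E18 to 1031 in E24 and 235 to 2192 CPM in E25 (slope 0.44 ± 0.08, adjusted p = 0.00297).

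The rise was not gradual for each gene. CXCL14, a chemokine, was at most 1.00 CPM in E16 and E18, 140 CPM in E24 and 5.01 to 53.4 CPM in E25, so E24 was above every E25 library. COL17A1, a collagen of hemidesmosomes, was 0 in E16 and 1 library of E18, reached 12.8 CPM in another of E18, and was 26.7 CPM in E24 and 22.1 to 58.0 CPM in E25. S100A1, DHRS3, IGFBP2 and GPX3 completed the genes named for a rise, with slopes between 0.39 and 0.60. DHRS3 reduces retinaldehyde, IGFBP2 binds insulin-like growth factors and GPX3 is a secreted glutathione peroxidase. Outside the fit, GPX3 had 1, 26, 20 and 147 summed counts in E20, E21, E22 and E23. The 147 counts came from 9 cells, against 635 from the 83 cells of E25. CXCL14, WFDC2 and COL17A1 lost their rise when the library code was a term (slopes -2.17, -0.035 and -0.021).

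Of the 10 genes named for a fall, ABCC3, an export pump for conjugated organic anions, had 15.8 CPM in E16, 123, 174 and 211 CPM in E18, 4.49 in E24, and 0, 0, 0, 0.629 and 5.42 CPM in E25. E18 was thus above E16, and the slope was -0.87 ± 0.13 (adjusted p = 0.000899). HSD17B2, which converts estradiol to estrone, had 109 CPM in E16, 154, 202 and 302 CPM in E18, 41.2 in E24 and 20.8 to 48.8 CPM in E25 (slope -0.33 ± 0.05, adjusted p = 0.00103). INSL4, a placental peptide of the insulin family, had 408 CPM in E16, 83.9 to 179 in E18, 54.3 in E24 and 5.13 to 51.5 CPM in E25 (slope -0.38 ± 0.06, adjusted p = 0.00233). No library of E20 to E23 entered the fit, and levels there did not fall steadily. Summed INSL4 counts were 494 in E20 (17 cells), 92 in E21 (34), 37 in E22 (12) and 243 in E23 (9). The 83 cells of E25 held 272. HSD17B2 had 105, 140, 36 and 218 counts in E20, E21, E22 and E23, and 510 in E25. POLR3K, a subunit of RNA polymerase III, had 261 CPM in E16, 195, 286 and 320 in E18, 76.9 in E24 and 39.4 to 70.9 CPM in E25, with no overlap between E18 or E16 and the later libraries (slope -0.29 ± 0.04, adjusted p = 0.000174). SLC7A5, SDF2L1, EMP2, GLMN, ID2 and ATP1B1 had slopes between -0.33 and -0.26. ID2, an inhibitor of bHLH factors, rested on the E16 library at 252 CPM, and without it the slope was 0.0056 (adjusted p = 0.986).

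**Figure D4:**
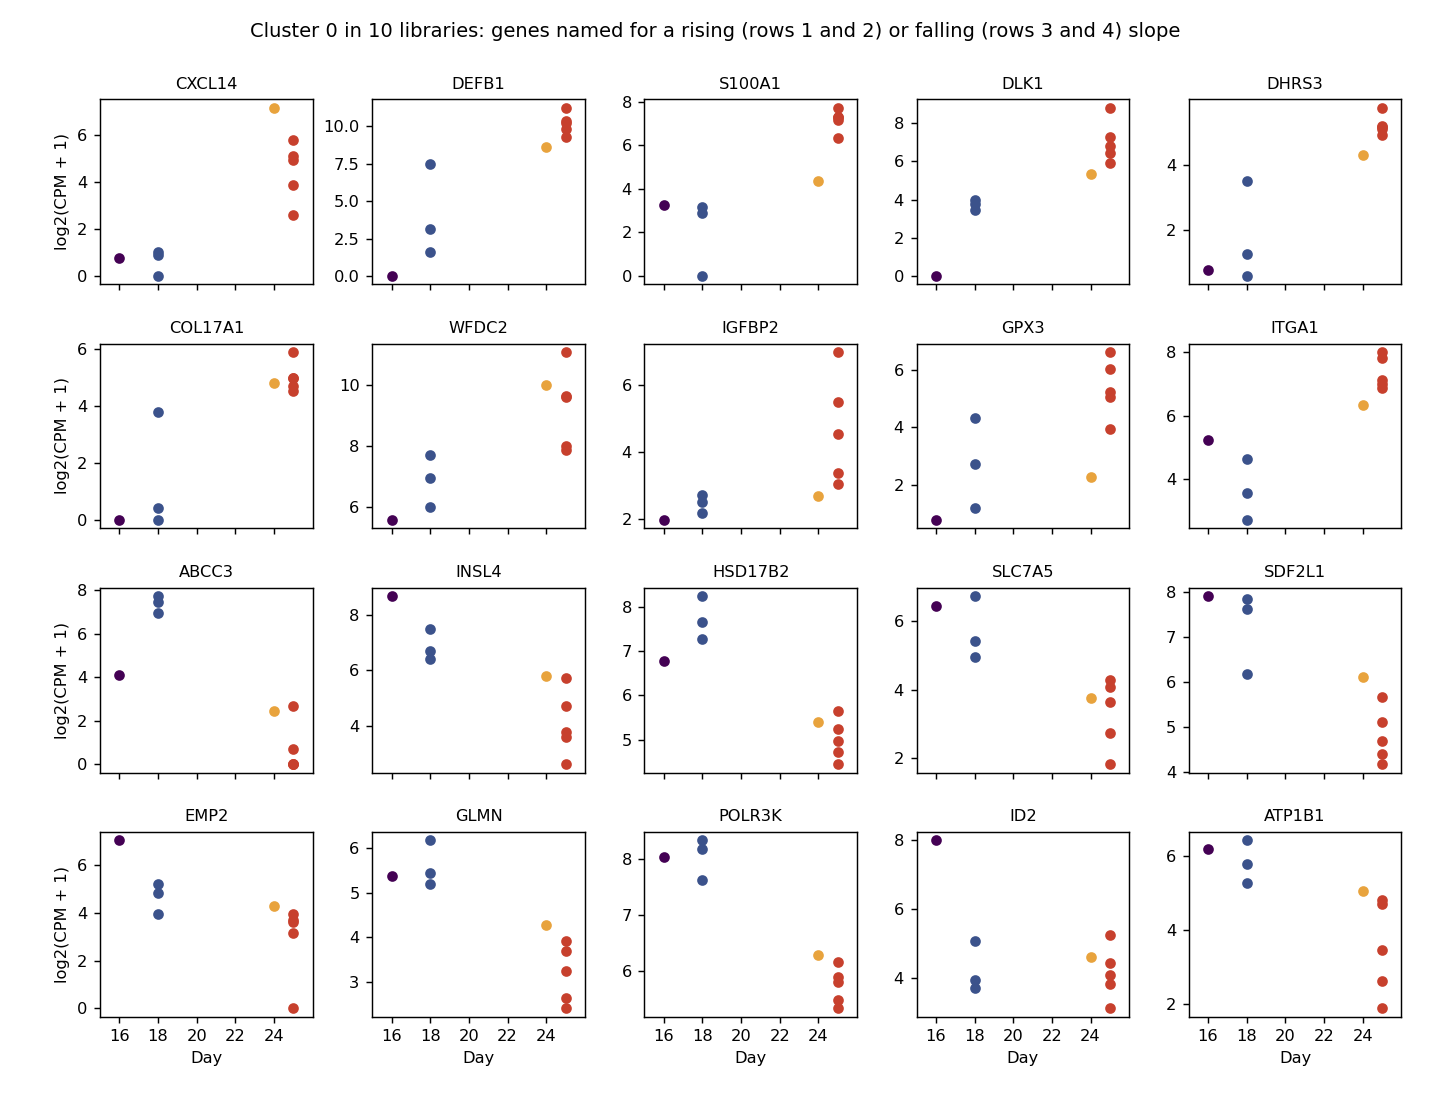
The 20 genes named for their slope, as log2(CPM + 1) in 10 libraries of cluster 0 against embryonic day; each point is 1 library (purple E16-2, blue E18, orange E24, red E25). Genes of the upper 2 rows are higher and, ID2 apart, those of the lower 2 rows lower in the E25 libraries than in most libraries of E16 and E18, and there is no library between E18 and E24.

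Some lists held several calls with day, and most held 1 or 0. Over all 9483 genes 2.49% rose and 1.40% fell, with a median slope of 0.0020 log2 per day. The lists were chosen with earlier results of these data known, and no list was tested as a set. Immediate early and heat shock genes rose in 4 of 9 tested members and fell in 0 (median 0.20), namely FOS, FOSB, ATF3 and EGR1, transcription factors of early responses. Hypoxia and glycolysis genes rose in 4 of 11 (median 0.12), namely P4HA1, SLC2A1, PGK1 and BNIP3. Cell junction genes rose in 4 of 13 (median 0.10): CDH1, EPCAM, CLDN4 and OCLN. Interferon and antigen presentation genes rose in 3 of 9 (median 0.13), namely IFIT1, IFIT3 and IFI6. Of 14 proliferation genes 1 rose (TYMS) and 2 fell (MKI67 and RRM2). With libraries of at least 5 cells, where edgeR called 168 of 8140 genes (2.06%), 3 immediate early, 3 hypoxia, 1 cell junction and 1 interferon gene rose, and 0 proliferation genes rose or fell. None of 18 trophoblast transcription factors and none of 7 DNA methylation genes passed by edgeR (medians -0.0032 and 0.019). Of the given markers, CST6 had a slope of 0.24 ± 0.10 (adjusted p = 0.193), VIT 0.28 ± 0.11 (adjusted p = 0.163) and KRT17 0.01 ± 0.21 (adjusted p = 0.994).

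E25 and E18 were the 2 embryos with at least 2 such libraries, and the contrast between them called more genes than the slope. With edgeR's quasi-likelihood test 615 of 9138 genes (6.73%) had an adjusted p under 0.05, of which 348 (3.81%) were higher and 267 (2.92%) lower in E25. The contrast shares its libraries with the slope, and 284 genes passed both. The E18 embryo is male and the E25 embryo female, and all E18 libraries carry a library code that no E25 library has, so day, embryo, sex and code cannot be told apart here.

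Genes of the contractile cytoskeleton were lower in E25. TAGLN, transgelin, an actin-binding protein of smooth muscle, had 459, 482 and 508 CPM in E18 and 53.6, 58.3, 63.7, 88.9 and 112 CPM in E25, a difference of -2.61 ± 0.25 (SE, adjusted p = 4.50e-06). The groups did not overlap, and E18 was the higher. Of 11 tested genes of the actin and muscle list, 6 were lower and 0 higher, with a median of -1.19 against 0.04 over all genes. Besides TAGLN these were ACTA2, ACTG2, MYL9, TPM2 and FHL2. The groups overlapped for ACTA2, which had 2.51, 58.8 and 97.7 CPM in E18 and 4.80 to 16.3 CPM in E25. MYL9, a myosin light chain, went from 128 to 239 CPM in E18 to 26.5 to 56.8 CPM in E25 (-2.03 ± 0.31, adjusted p = 0.000523). NEXN, a protein of actin filaments, went from 42.6 to 64.7 CPM to at most 0.716 CPM. The level of TAGLN did not follow day: it was 343 CPM in E16-2, 487 in E18, 868 in E20, 360 in E21, 398 in E22, 50.2 in E23, 671 in E24 and 70.6 CPM in E25, and its slope was not called (adjusted p = 0.345).

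Genes of interferon response were among the higher ones, while B2M was lower. BST2, tetherin, which holds enveloped virus at the cell surface, had 5.95, 8.94 and 14.8 CPM in E18 and 94.0, 120, 128, 190 and 291 CPM in E25, a difference of 4.10 ± 0.43 (adjusted p = 8.47e-06). The groups did not overlap. IFI27L2 went from 20.4 to 32.6 CPM to 117 to 258 CPM (2.85 ± 0.33). IFIT1, an interferon-induced RNA-binding protein, had at most 0.852 CPM in E18 and 12.4 to 46.5 CPM in E25. B2M, the light chain of MHC class I, had 1769.6 to 2307 CPM in E18 and 637 to 988 CPM in E25 (-1.27 ± 0.19, adjusted p = 0.000384). Of 9 tested genes of the list 3 were higher and 1 lower, with a median of 0.56.

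Stress response and adhesion genes were also higher in E25. FOSB had 32.6, 45.1 and 65.2 CPM in E18 and 162, 215, 261, 273 and 349 CPM in E25 (2.47 ± 0.30, adjusted p = 4.74e-05), and 4 of 9 genes of its list were higher, with 0 lower. DDIT3, the transcription factor CHOP of the unfolded protein response, had 23.5 to 30.1 CPM in E18 and 57.8 to 148 CPM in E25 (2.16 ± 0.33, adjusted p = 0.000548). Of 10 endoplasmic reticulum stress genes 3 were higher and 1, SDF2L1, lower. GRN, progranulin, a lysosomal growth factor precursor, had 81.6, 94.95 and 104 CPM in E18 and 238 to 485 CPM in E25 (2.14 ± 0.25). Of 13 cell junction genes 4 were higher and 0 lower, with a median of 0.78: CDH1, EPCAM, CLDN3 and CLDN4. CDH1, E-cadherin, had 2.98 to 4.55 CPM in E18 and 14.03 to 34.3 CPM in E25 (2.57 ± 0.66, adjusted p = 0.0248). EGFR, the receptor of epidermal growth factor, was higher by 1.66 ± 0.48 (adjusted p = 0.0437).

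Differences of the proliferation genes were mostly below 0. Of 14 tested, 3 were called lower and 2 higher in E25, with a median of -0.54 and 2 members above 0. CCND1, cyclin D1, had 203 to 255 CPM in E18 and 38.9 to 100.2 CPM in E25 (-1.58 ± 0.27, adjusted p = 0.00135), and CDKN1A, an inhibitor of cyclin-dependent kinases, had 0.753 to 4.68 CPM in E18 and 10.7 to 47.1 CPM in E25 (3.58 ± 0.79, adjusted p = 0.00981). MKI67 and RRM2 were lower and TYMS higher. CTSE, the aspartic protease cathepsin E, had 29.8, 131 and 157 CPM in E18 and at most 2.15 CPM in E25 (adjusted p = 4.50e-06). ABCC3, ITGA1 and HSD17B2 were again among the 10 genes of lowest p. The mesenchyme markers differed as well: 8 of 10 tested were higher in E25 and 0 lower, with a median of 2.54, and COL1A1 was higher by 2.68 ± 0.40 (adjusted p = 0.000427). Of 9 tested EVT markers 2 were higher in E25 and 0 lower, with a median of 1.1505, and these were ITGA1 and FN1, fibronectin. ITGA1 stood at 331 CPM in EVT and 207 CPM in EXMC, and FN1 at 1896 and 4914 CPM. The part of either class in these differences was not tested. TAGLN and ACTA2, both called lower in E25, stood at 1038 and 982 CPM in EXMC, and the part of that class in their levels was not tested.

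**Figure D5:**
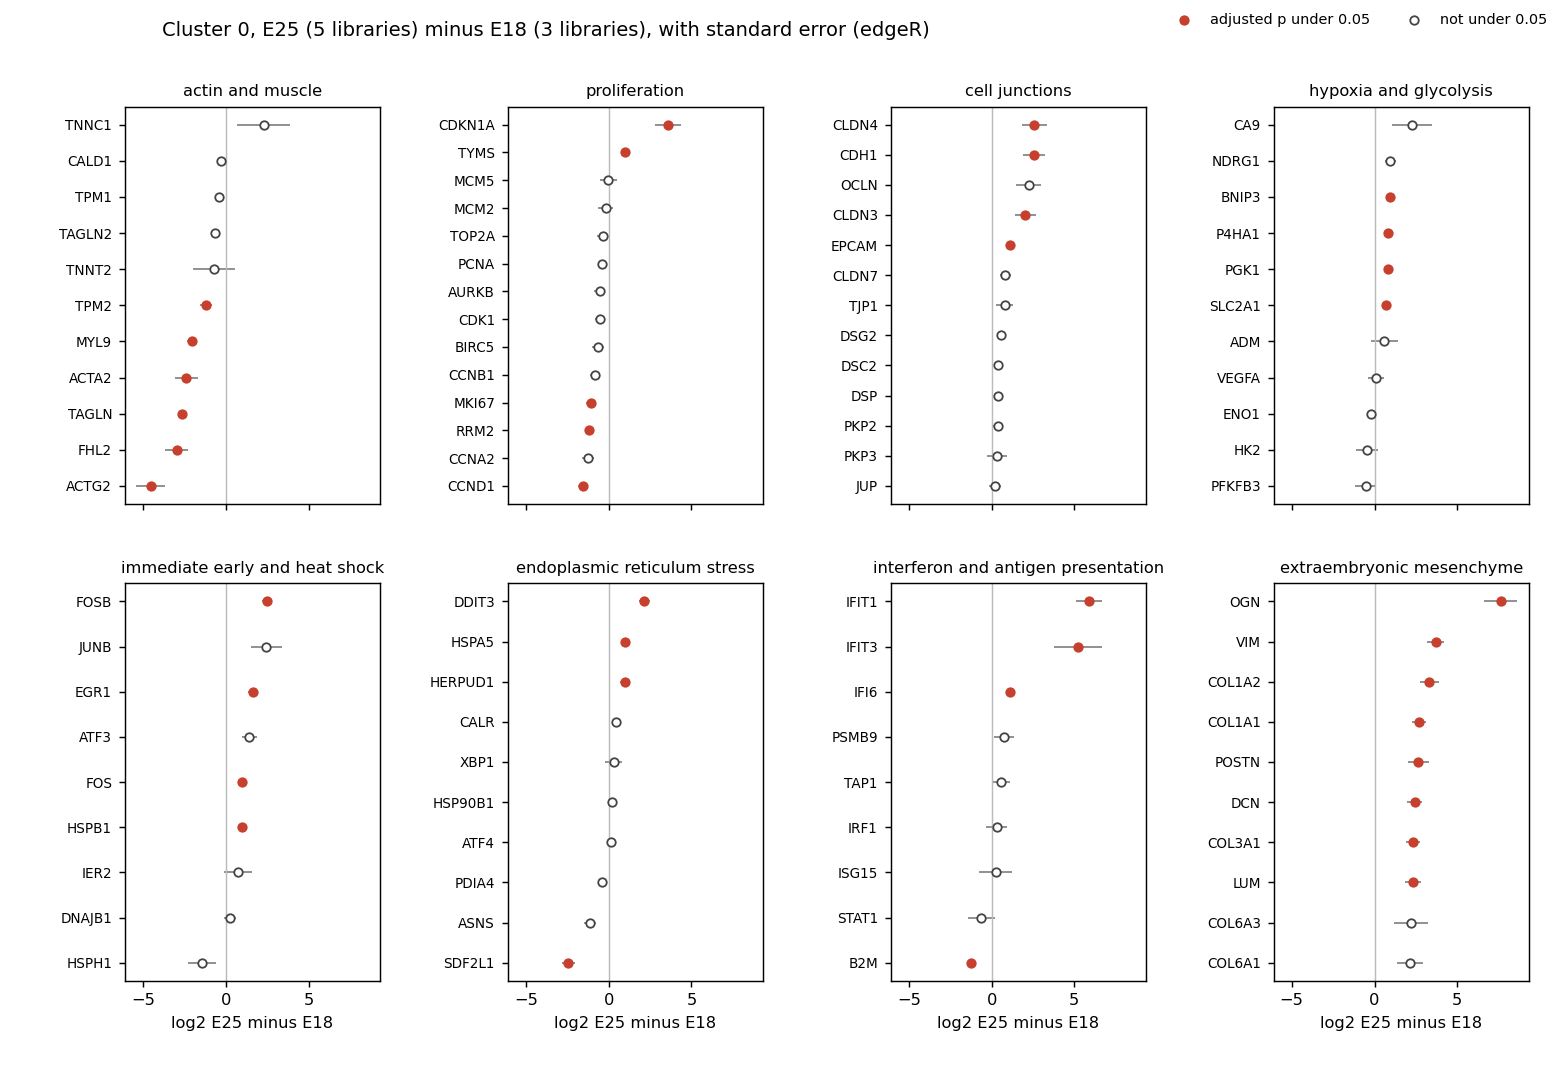
Difference of cluster 0 between E25 (5 libraries) and E18 (3 libraries) in log2 units for the tested genes of 8 lists; bars are standard errors of the edgeR fit and filled points have an adjusted p under 0.05. Actin and muscle genes lie mostly below 0, and the mesenchyme markers all above 0.

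With libraries of at least 5 cells, 5 embryos had 2 or more libraries (E16-2, E18, E21, E24 and E25), and an edgeR quasi-likelihood test over all of them called 815 of 10106 genes (8.06%). Its p-values, too, measure the spread of libraries inside an embryo. Of the given markers CST6 differed between embryos with an adjusted p of 0.000482, KRT17 with 0.00346 and VIT with 0.0426. For ACTA1 no test is given, since among the tested E24 libraries its counts came from library 20 alone (41.03 CPM) and it was at 0 in E18 and E25. Between E25 and E18 alone KRT17 differed by -4.47 ± 1.09 (adjusted p = 0.0180), with 30.5, 67.2 and 77.1 CPM in E18 and 0, 0, 0, 0.369 and 15.0 CPM in E25. CST6 had 72.8, 145 and 273 CPM in E18 and 125 to 656 CPM in E25, which overlap (0.85 ± 0.47, adjusted p = 0.343). Among the 286 cells, 113 also have a DNA library in the authors' pairing table, of 1862 such cells in the series. DNA data were not analysed here.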

How the data were processed

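The deposited table holds raw counts per gene and cell, per the file headers and its values, for 21834 genes in 3682 cells; column sums equal the authors' total in every cell. Per the submitters' processing notes, cutadapt 1.15, STAR 2.6.0a and HTSeq 0.10.0 were used. Not given in the sources used here are the genome build, the strand setting, how doublets were treated, and whether counts are reads or molecules. No doublet caller was run. No cell name was repeated and no 2 cells had the same counts. Class, fine cluster, embryo and sex are the authors' deposited annotation.

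Since cells of 1 library are not replicates, tests took the sum of the cluster 0 counts of each library. The software was R 4.3.3 with edgeR 4.0.16 (quasi-likelihood F test after TMM and filterByExpr, Benjamini-Hochberg over all genes tested, threshold 0.05). The fits were also run on simulated counts drawn independently for each library. Such counts cannot show how often libraries that share an embryo give false calls. The 2 kinds of label place 42 libraries on a day; libraries 26 and 27 carry conflicting days and entered no test. Alternatives used DESeq2 1.42.0 and limma 3.58.1. The planned test of a slope difference between cluster 0 and other CTB cells could not be fitted, since 0 libraries had at least 10 cells of both kinds, and 1 had at least 5. The level difference therefore used sums per embryo, a choice made after seeing the data. It takes log2 of CPM with a pseudocount of 1.

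Members, markers and lists (11 marker and 19 functional lists, 320 of 351 genes in the table) were chosen with earlier results of these data known. Named genes are those given, those list members that pass or that a result turns on, up to 10 a direction by slope (adjusted p under 0.05, at least 20 CPM, same sign in sums per embryo), the 10 lowest p of E25 against E18 (at least 20 CPM), and 15 a direction by level difference (at least 50 CPM, same sign throughout); only genes with a symbol are named.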

Additional observations from a re-analysis of the deposited data

Results flagged for a closer look

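Within the 5 libraries of E25, 31 genes (the 4 given markers and those named by the tests) were checked for a library far from the other 4, and 8 had one. Chance nominally gives about 1 in 20 in this check, whose rate was not tested on counts near 0, and the libraries hold 10 to 24 cells of the cluster. Library 15 stood apart with 656 CPM of CST6 (others 125 to 227), 2192 CPM of WFDC2 (others 235 to 797) and 5.42 CPM of ABCC3 (others 0 to 0.629). Library 22 stood apart with 15.0 CPM of KRT17 (others 0 to 0.369), 52.3 CPM of DHRS3 (others 28.8 to 35.2), 58.0 CPM of COL17A1 (others 22.1 to 30.6) and 2.15 CPM of CTSE (others 0 to 0.157). Library 16 stood apart with 447 CPM of DLK1 (others 59.1 to 154), and it also had the highest sum of mesenchyme markers, 4371 CPM.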

How the results depend on the processing

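The count of 369 genes with a slope of day depended on the fit. It was 774 with DESeq2, 168 with at least 5 cells per library (138 of them shared), 297 with an embryo block in limma-voom (14 of the 20 named genes passed), 107 with at least 15 cells, 0 with sums per embryo by edgeR (446 at an unadjusted p under 0.05), 42 with the library code as a term, 209 with the mesenchyme sum as a covariate, 113 without E18 and 8 without E25. Leaving out each library in turn gave 159 to 492, with 159 without library 40, 202 without 17, 213 without 43, 220 without 22 and 221 without 16. At least 15 cells left 1 library of E24 and 2 of E25, so that fit compares 1 day with the next, the lone library is assumed to vary like the others, and it bears on no slope from E16; its sign was opposite for CXCL14 (-2.19), WFDC2 (-1.09), SLC7A5 (0.20) and ID2 (0.31). The slope reversed with the library code for CXCL14 (-2.17), COL17A1 (-0.0212) and WFDC2 (-0.035), without E16 or its library 5 for ID2 (0.00562; -0.306 to 0.00562 over the libraries left out), and without E25 for GPX3 (-0.0244). For E25 against E18 the 615 calls became 949 with DESeq2 and 241 to 586 on leaving out each library, with 241 without library 43, 253 without 40 and 385 without 17; the 10 named genes passed in each of these fits. At least 15 cells left only E25 with 2 libraries, so that fit could not be made. The 373 genes whose levels did not overlap became 646 without the cluster 0 sum of E20. In the 1 library with at least 5 cells of both kinds, 10 of the 30 genes named by level difference kept a like size. There 19 moved in size and 1, ANXA3, reversed (-1.33). Alternatives for the slope difference were not run, as no fit was possible. No paired analysis was possible because each library carries its own number and the groups compared share none.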

Other observations

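Library 27, which the annotation gives to E24 and whose labels name conflicting days, holds 27 cluster 0 cells and entered no test. Its CST6 level was 607 CPM, against 654 CPM in library 20 of E24, its ACTA1 level 45.9 against 41.03 CPM, and its KRT17 level 103 against 387 CPM. DEFB1 stood at 1896 CPM in library 27 and 385 CPM in library 20. Apart from these 2 libraries, ACTA1 was at 0 in the other 9 libraries with at least 10 cluster 0 cells.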
